A study of Mus musculus with 3 samples.

Results

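Expression of 10 genes of the p53 pathway was read in thymic leukaemias of Mb1-CreDPB mice. The genes were chosen by name, as the tumour suppressor gene Trp53, its regulators Mdm2 and Mdm4, the Cdkn2 locus (Cdkn2a and Cdkn2b) and the p53 targets Cdkn1a, Ccng1, Sesn1, Phlda3 and Zmat3. All 10 were present at 1 locus each among the 24437 genes of the deposited tables. RNA sequencing was done on 3 leukaemias, which formed 1 group. The library titled Thy_853 is referred to as leukaemia 1, Thy_854 as leukaemia 2, and Thy_857 as leukaemia 3. All shared the Mb1-CreDPB genotype on the C57BL/6 strain. In this model Cre recombinase is expressed from the mb-1 (Cd79a) locus and removes the Spi1 gene, which encodes PU.1, from B lineage cells, on a background without Spi-B, a related ETS factor. The deletion is thus limited to cells that express Cd79a, and other cells of the thymus keep Spi1. No control samples were analysed here, and the labels used here give neither the age of the mice nor whether each thymus came from another mouse. Every ± is therefore the SD over 3 libraries, whose spread may be technical in part. Where 3 values follow each other, they belong to leukaemias 1, 2 and 3 in turn.

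Levels are in FPKM (fragments normalised to the length of the transcript and the size of the library), so that genes of different length can be set side by side. FPKM summed to between 416284 and 431407 per library, and 9300 genes had FPKM of at least 1 in all 3, which is called expressed here. Sequencing depth in fragments was not stated in the sources used here. The libraries were of B lineage by their markers: all 8 B lineage genes were expressed, with a summed level of 8570, 7465 and 5616 FPKM, and T cell genes summed to 151, 33.2 and 38.4 FPKM. In bulk RNA, fewer cells of a type and less RNA per cell cannot be told apart.

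p53, the product of Trp53, is a transcription factor that is activated by DNA damage and by oncogene signalling and that switches on genes of cell cycle arrest, DNA repair and apoptosis. Its level is set largely by protein turnover: Mdm2 ubiquitinates p53 and is itself a p53 target, Mdm4 binds p53 and restrains its activity, and the Arf protein, encoded by Cdkn2a, blocks Mdm2. Loss of p53 or of Arf is a known route to B lineage leukaemia in mice. RNA levels report the transcripts and not the amount or the state of the p53 protein, nor whether any of these genes was mutated.

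Promoter windows are shown for 3 of the genes that the results below turn on, namely Cdkn1a, which differed most between libraries among the expressed members, Ccng1, which differed least, and Cdkn2a, whose 1 FPKM value covers transcripts from 2 start sites. The windows run from 250 bases before an annotated start to 50 bases after it, 5′ to 3′ on the strand of the gene, and are RefSeq sequences of build GRCm38.p6. Capitals mark exact matches to the p53 half-site consensus, a motif of 10 bases whose full site is a pair of half-sites. The motif reads the same on both strands, so 1 search covers both, and no matches overlapped.
Cdkn1a, upstream start, chr17:29090729-29091028, plus strand: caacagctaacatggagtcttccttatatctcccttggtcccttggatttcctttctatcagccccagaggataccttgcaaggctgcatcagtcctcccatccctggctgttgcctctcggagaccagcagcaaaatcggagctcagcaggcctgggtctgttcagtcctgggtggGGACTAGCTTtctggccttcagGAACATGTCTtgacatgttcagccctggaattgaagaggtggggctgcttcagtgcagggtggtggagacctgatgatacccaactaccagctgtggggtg
Ccng1, chr11:40755237-40755536, minus strand: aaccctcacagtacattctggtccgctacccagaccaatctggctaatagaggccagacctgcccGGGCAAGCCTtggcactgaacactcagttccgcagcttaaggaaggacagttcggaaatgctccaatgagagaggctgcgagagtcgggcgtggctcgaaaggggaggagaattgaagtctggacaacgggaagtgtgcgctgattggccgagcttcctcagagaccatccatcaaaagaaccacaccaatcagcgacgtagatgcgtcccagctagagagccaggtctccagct
Cdkn2a, upstream start, chr4:89294570-89294869, minus strand: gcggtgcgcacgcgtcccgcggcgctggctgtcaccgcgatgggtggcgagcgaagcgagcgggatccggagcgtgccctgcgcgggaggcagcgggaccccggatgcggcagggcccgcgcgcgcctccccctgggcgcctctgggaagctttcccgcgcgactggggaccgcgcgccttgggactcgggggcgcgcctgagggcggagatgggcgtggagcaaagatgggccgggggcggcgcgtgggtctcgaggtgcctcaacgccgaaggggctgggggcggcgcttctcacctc
Cdkn2a, downstream start, chr4:89282143-89282442, minus strand: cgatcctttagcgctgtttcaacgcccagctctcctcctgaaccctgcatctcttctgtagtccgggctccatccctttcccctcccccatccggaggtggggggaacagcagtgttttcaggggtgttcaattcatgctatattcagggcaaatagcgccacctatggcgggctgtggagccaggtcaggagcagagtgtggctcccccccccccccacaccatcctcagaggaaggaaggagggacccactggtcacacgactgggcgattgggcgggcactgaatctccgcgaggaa

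Of the 10 genes, 9 had a window, with 13 starts in all, and Zmat3 did not. A half-site was found at 5 of these 13 starts, those of Trp53, Mdm2 and Ccng1, the upstream start of Cdkn1a and the downstream start of Sesn1, against 8.36% of all 32851 starts in the table. The upstream start of Cdkn1a held 2 exact half-sites, 12 bases apart, and 0.359% of all starts held 2 or more. These half-sites begin 73 and 51 bases before that start, and 2863 and 2841 bases before the downstream Cdkn1a start at position 29093769. Near matches were not searched. The 10 bases directly after the second half-site depart from the consensus only in their first base, so the 2 marked matches need not be the pair of a full site. In the Ccng1 window, the 10 bases directly before the marked half-site likewise depart from the consensus in a single base. Both Cdkn2a windows held none. The upstream one, from which Arf is transcribed, had 77.0% G and C and 45 CpG dinucleotides, against 60.3% and 12 in the downstream one, from which p16Ink4a is transcribed. A match describes the letters only and is not evidence of p53 binding in these cells.

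Trp53 was the most abundant of the 10 genes. It stood at 120, 135 and 149 FPKM, a mean of 135 ± 14.3 (n = 3), with deposited 95% intervals of 119 to 125, 134 to 140 and 148 to 154. These intervals did not overlap, yet the highest library exceeded the lowest by only 1.24 times, less than the median of 1.34 times over all expressed genes. By mean FPKM Trp53 ranked 508 of 24437 genes. The gene lies on mm10 chromosome 11, 69580359 to 69591873.

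**Figure D1:**
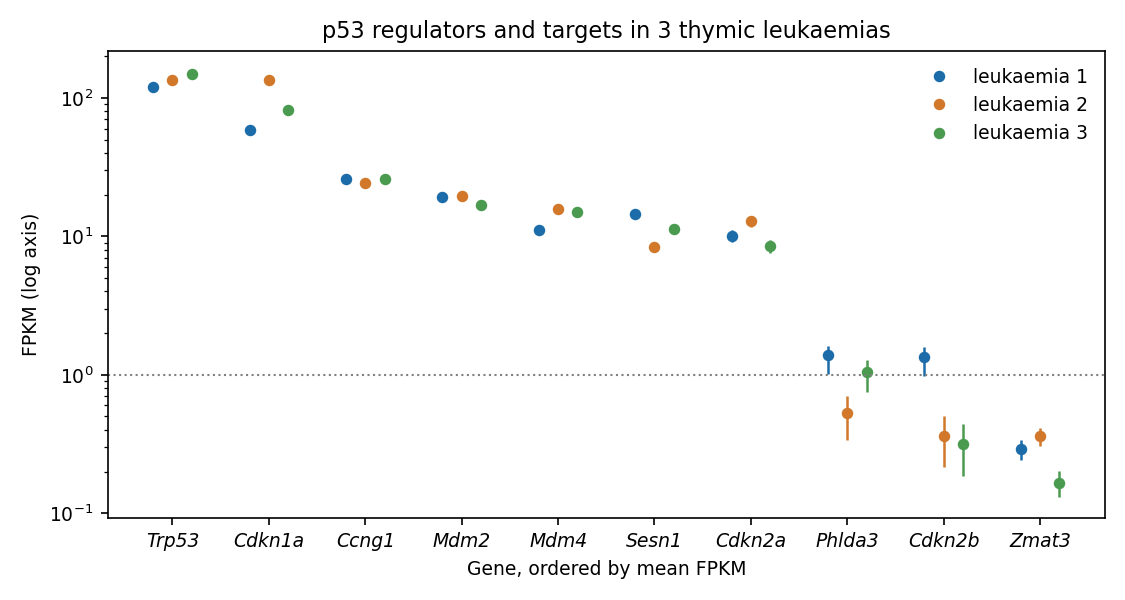
FPKM (log axis) of the 10 genes in leukaemias 1, 2 and 3, ordered by mean. Points are deposited FPKM values, vertical lines the deposited 95% intervals (hidden by the points where narrow), and the dotted line FPKM of 1. Trp53 and Cdkn1a stand highest, and Phlda3, Cdkn2b and Zmat3 lie near or below 1.

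Both Mdm genes were expressed at similar levels. Mdm2, the E3 ubiquitin ligase of p53 (chromosome 10, 117688875 to 117710758), stood at 19.1, 19.6 and 16.9 FPKM, a mean of 18.5 ± 1.46. Mdm4, its partner without strong ligase activity of its own (chromosome 1, 132986105 to 133030587), stood at 11.1, 15.6 and 15.1 FPKM, a mean of 13.9 ± 2.45. Mdm2 was level between leukaemias 1 and 2, whose intervals overlapped, and somewhat lower in leukaemia 3. Mdm4 was lowest in leukaemia 1 and level between leukaemias 2 and 3. The ratio of Mdm2 to Mdm4 in FPKM was 1.72, 1.26 and 1.12, so that Mdm2 was the higher in every library. Trp53 exceeded Mdm2 by 6.30, 6.89 and 8.83 times in FPKM. Differences of Mdm2 between libraries were at most 0.21 on the log2(FPKM + 1) scale and those of Mdm4 at most 0.45 in size.

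At the Cdkn2 locus Cdkn2a was expressed in every leukaemia and Cdkn2b was low. Cdkn2a, which encodes the p53 activator Arf and the CDK4 and CDK6 inhibitor p16Ink4a in different reading frames (chromosome 4, 89274473 to 89294619), stood at 10.04, 12.8 and 8.45 FPKM, a mean of 10.4 ± 2.22. The deposited tables are per gene, so the transcripts of the 2 start sites shown above cannot be told apart. The same holds for Mdm4, Cdkn1a and Sesn1, which also have 2 annotated starts each. Cdkn2b, the neighbouring gene of the related inhibitor p15Ink4b (chromosome 4, 89306289 to 89311032), stood at 1.34, 0.363 and 0.319 FPKM, a mean of 0.675 ± 0.579. Without leukaemia 1 the mean of Cdkn2b was 0.341 FPKM. The interval of Cdkn2b in leukaemia 1, 0.972 to 1.60, lay above those in leukaemias 2 and 3, which were 0.215 to 0.502 and 0.187 to 0.439 and overlapped each other.

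Cdkn2a exceeded Cdkn2b by 7.47, 35.3 and 26.5 times in FPKM. On the log2(FPKM + 1) scale the gap was 2.24, 3.34 and 2.84, a mean of 2.81 ± 0.55 (n = 3; p = 0.25 by an exact permutation of signs, two-sided, the smallest p that 3 libraries allow). Cdkn2a was the higher in 3 of 3 libraries. Of the neighbours that flank the locus, Mtap, a methionine salvage enzyme gene that is often lost together with CDKN2A in human tumours, stood at 15.6, 19.6 and 22.5 FPKM, above its own deposited upper bound in at least 1 library. Dmrta1, a transcription factor gene on the other side, was at 0.0252 and 0.108 FPKM in leukaemias 1 and 2 and was listed at 0 in leukaemia 3. The locus thus gave transcripts of both Mtap and Cdkn2a in all 3 libraries. Which cells of the thymus these transcripts came from was not tested.

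**Figure D2:**
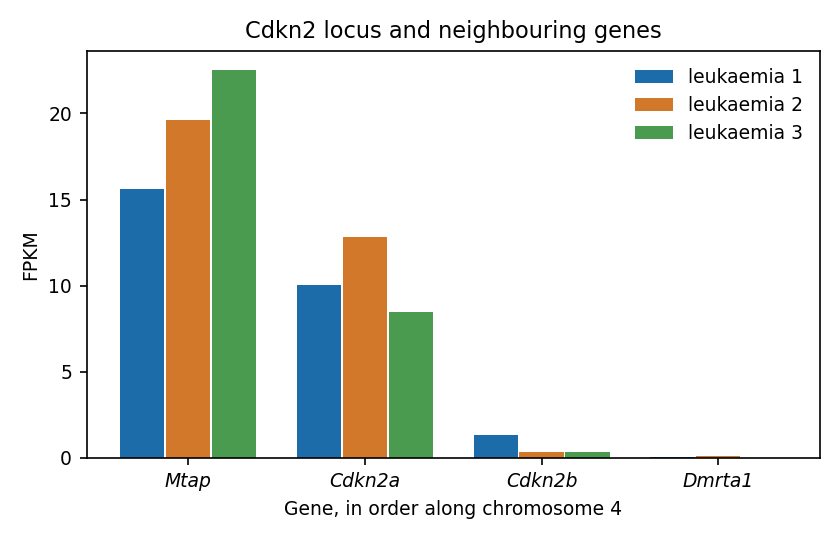
FPKM (bars, linear axis from 0) of Mtap, Cdkn2a, Cdkn2b and Dmrta1, in their order along chromosome 4, in leukaemias 1, 2 and 3. Each bar is 1 library. Mtap and Cdkn2a have bars of 8.45 FPKM or more in every library, and Cdkn2b reaches 1.34 FPKM in leukaemia 1.

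Among the p53 targets expressed in all libraries Cdkn1a was the highest and the most uneven. Cdkn1a, which encodes the CDK inhibitor p21 (chromosome 17, 29090979 to 29100722), stood at 59.0, 135 and 81.7 FPKM, a mean of 91.8 ± 38.9. It was lowest in leukaemia 1 and highest in leukaemia 2, where it stood level with Trp53, and its 3 intervals, 57.6 to 61.4, 133 to 139 and 80.3 to 84.7, did not overlap. The highest library exceeded the lowest by 2.28 times, a wider range than in 90.8% of expressed genes. Relative to Trp53 in the same library, Cdkn1a stood at 0.490, 0.998 and 0.548 times its FPKM.

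Ccng1 was the steadiest member. This gene of cyclin G1, a p53 target that recruits a phosphatase to Mdm2 (chromosome 11, 40748552 to 40755286), stood at 25.9, 24.4 and 25.8 FPKM, a mean of 25.3 ± 0.849. Its intervals overlapped in every pair, and a narrower range was seen in only 3.98% of expressed genes. Its FPKM lay just above its own deposited upper bounds of 25.8, 24.2 and 25.7, as that of no other member did. Cdkn1a exceeded Ccng1 by 2.28, 5.53 and 3.17 times in FPKM, so the p53 targets did not keep 1 ratio across the leukaemias.

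Sesn1 varied in the other direction from Cdkn1a. Sesn1, which encodes a stress-induced inhibitor of mTORC1 signalling (chromosome 10, 41810574 to 41908436), stood at 14.5, 8.36 and 11.3 FPKM, a mean of 11.4 ± 3.05. It was highest in leukaemia 1 and lowest in leukaemia 2, where Cdkn1a was highest. Its 3 intervals, 13.7 to 15.3, 7.81 to 8.93 and 10.6 to 11.9, did not overlap. The order of the libraries was thus opposite for the 2 targets, a description over 3 libraries.

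Phlda3 and Zmat3 were near or below 1 FPKM. Phlda3, a p53 target that restrains Akt at the membrane (chromosome 1, 135766085 to 135769134), stood at 1.38, 0.526 and 1.04 FPKM, a mean of 0.981 ± 0.429. It was lowest in leukaemia 2, as Sesn1 was, and the intervals of leukaemias 1 and 3 overlapped. Zmat3, which encodes an RNA-binding zinc finger protein induced by p53 (chromosome 3, 32334794 to 32365665), stood at 0.289, 0.359 and 0.166 FPKM, a mean of 0.271 ± 0.0980. It ranked 11219 by mean FPKM and Phlda3 10007, whereas Cdkn1a ranked 845.

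In the order of mean FPKM the 10 genes ran Trp53, Cdkn1a, Ccng1, Mdm2, Mdm4, Sesn1, Cdkn2a, Phlda3, Cdkn2b and Zmat3. Of the neighbours in this order, Cdkn1a and Ccng1, Ccng1 and Mdm2, Mdm2 and Mdm4, and Cdkn2a and Phlda3 had ranges over the 3 libraries that did not overlap. The other neighbours overlapped, namely Trp53 and Cdkn1a, Mdm4 and Sesn1, Sesn1 and Cdkn2a, Phlda3 and Cdkn2b, and Cdkn2b and Zmat3. The widest step was that from Cdkn2a, at 8.45 FPKM or more, to Phlda3, at 1.38 or less. Thus 7 of the 10 genes were expressed in all 3 libraries, and 3 were not.

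The leukaemias were then set side by side, gene by gene. A gene was counted as differing when its values lay at least 1 apart in log2(FPKM + 1) and reached FPKM of 1 in either library. With 1 library on each side there is no replicate check and no p-value. Between leukaemias 1 and 2, 9 of the 10 members passed the FPKM minimum and 1 of them, Cdkn1a, differed, by -1.18 for leukaemia 1 minus 2. Among all 10295 genes above the minimum 8.37% differed, 5.63% being higher and 2.74% lower in leukaemia 1, so 1 of 9 is close to the background. Cdkn1a lay further apart than 94.0% of these genes. Of the members above the minimum, the median size of the difference was 0.45, against 0.27 over all genes above it.

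No member differed by this criterion between leukaemias 1 and 3, where 9 members passed the minimum, nor between leukaemias 2 and 3, where 8 did. The background was 10.2% of 10265 genes for the first of these pairs, with 6.84% higher and 3.34% lower in leukaemia 1, and 4.94% of 10047 genes for the second, with 3.11% higher and 1.83% lower in leukaemia 2. The nearest to the threshold were Cdkn2b, at 0.83 for leukaemia 1 minus 3, and Cdkn1a, at 0.72 for leukaemia 2 minus 3. The median size over the members above the minimum was 0.30 in both pairs, against 0.31 for leukaemia 1 minus 3 and 0.18 for leukaemia 2 minus 3 over all genes above it. The pseudocount of 1 shrinks differences of low genes. With a pseudocount of 0.1, Cdkn2b and Phlda3 also passed as higher in leukaemia 1 than in leukaemia 2. Cdkn2b also passed as higher in leukaemia 1 than in leukaemia 3. At that setting 1328 of 10295 genes above the minimum passed for leukaemia 1 minus 2 and 1541 of 10265 for 1 minus 3. In FPKM itself Cdkn2b was 3.69 times higher in leukaemia 1 than in leukaemia 2 and 4.22 times higher than in leukaemia 3. Deposited intervals were apart in 7 of 9 members above the minimum for leukaemia 1 minus 2, against 68.5% of all genes above it, in 6 of 9 against 71.8% for 1 minus 3, and in 6 of 8 against 56.3% for 2 minus 3. Those of Trp53, Cdkn1a and Sesn1 were apart in all pairs.

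**Figure D3:**
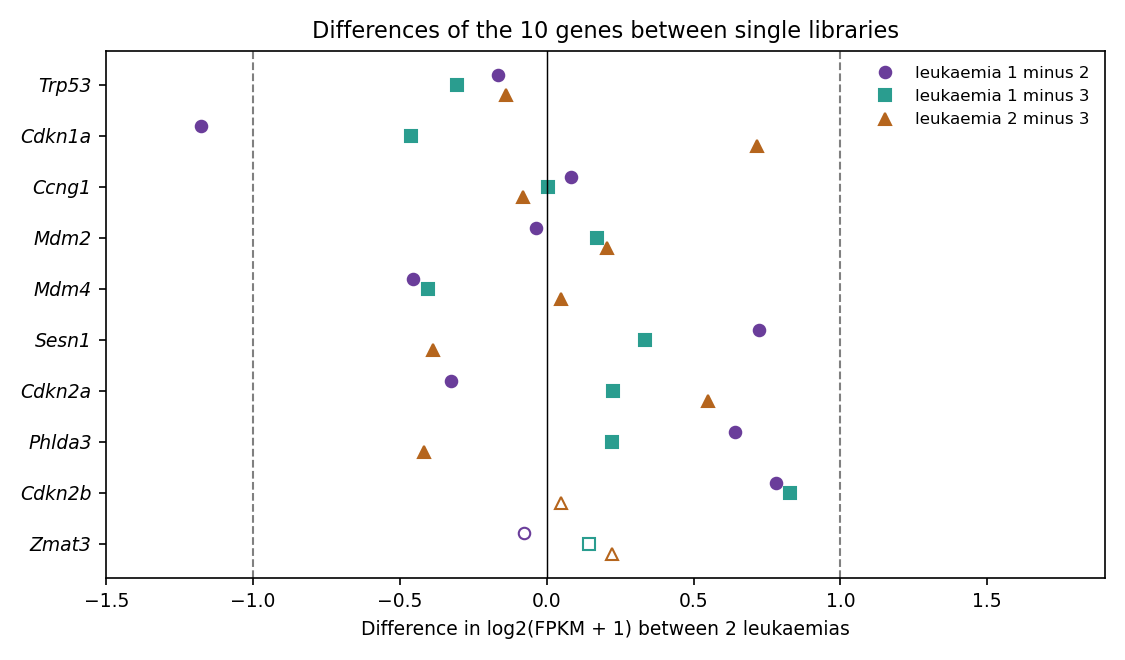
Difference in log2(FPKM + 1) of the 10 genes for leukaemia 1 minus 2 (circles), 1 minus 3 (squares) and 2 minus 3 (triangles), with dashed lines at -1 and 1. Open symbols mark pairs in which FPKM stayed below 1 in both libraries. Cdkn1a for leukaemia 1 minus 2, at -1.18, is the only point past a dashed line.

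T cell and interferon genes set leukaemia 1 apart, the library in which Cdkn1a was lowest and Sesn1, Phlda3 and Cdkn2b were highest. By the same criterion 10 of 10 T cell genes lay higher in leukaemia 1 than in leukaemia 2 and 9 of 10 higher than in leukaemia 3, and none was at 0 in any library. All 5 interferon genes were higher in leukaemia 1 than in each of the others, with summed levels of 242, 99.8 and 71.7 FPKM. NK cell genes summed to 88.3, 143 and 82.8 FPKM, of which Gzma made up 17.1, 125 and 62.6, and 3 of the other 4, Nkg7, Klrd1 and Prf1, were higher in leukaemia 1 than in leukaemia 2. Myeloid genes summed to 373, 301 and 99.6 FPKM and stromal and epithelial genes to 4.12, 3.54 and 1.99, with none listed at 0. Of the 7 myeloid genes 0 differed between leukaemias 1 and 2. Against leukaemia 3, 4 were higher in leukaemia 1 and 3 were higher in leukaemia 2. No stromal or epithelial gene differed in any pair. The 7 proliferation genes summed to 570, 878 and 1125 FPKM, and 1 of them, Pcna, differed, being lower in leukaemia 1 than in leukaemia 3. All 7 were lower in leukaemia 1 than in each of the others, most of them short of the criterion. Their median differences were -0.59 for leukaemia 1 minus 2 and -0.94 for 1 minus 3, against 0.02 and -0.01 over all genes. The part of these cells and states in the levels of the p53 genes was not tested.

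Further genes of the pathway were read from 7 lists, 52 genes in all. The activators of p53, which are kinases, acetyltransferases and the adaptor Trp53bp1, were all expressed, 10 of 10. Within this and the following lists genes are ranked by mean FPKM. Kat5, an acetyltransferase, led at 24.4, 20.3 and 23.6 FPKM, followed by Chek1, a checkpoint kinase, at 6.35, 11.5 and 13.9, and Prkdc, the DNA-dependent protein kinase, had the lowest mean, at 2.1, 3.99 and 2.17. Of these 10, none differed between leukaemias 1 and 2 or between 2 and 3, and 1, Chek1, was lower in leukaemia 1 than in leukaemia 3, by -1.01. With median-of-ratios scaling the difference of Chek1 was -0.98, short of the threshold. The other negative regulators of p53 were all expressed as well, 7 of 7, and none differed in any pair. Bcl6 came nearest, at 0.945 for leukaemia 1 minus 2, and stood at 16.1, 7.89 and 10.1 FPKM. The deubiquitinase Usp7, which stabilises Mdm2 and p53, stood at 37.6, 47.8 and 53.2 FPKM, above its own upper bound in at least 1 library. Rchy1, a ubiquitin ligase of p53, stood at 34.7, 24.6 and 22.03 FPKM, and Rfwd2, the ligase also called Cop1, at 6.25, 5.30 and 5.44. The p53 relatives Trp63 and Trp73 were at most 0.0399 FPKM, with Trp63 listed at 0 in leukaemia 3.

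Genes known to control the Cdkn2 locus were expressed in 8 of 9 cases, and none met the criterion in any pair. E2f1 and Myc came near it, both lower in leukaemia 1. For leukaemia 1 minus 2 and 1 minus 3, E2f1 lay at -0.89 and -0.99 and Myc at -0.89 and -0.82. Ezh2, the Polycomb methyltransferase that silences the locus, stood at 157, 195 and 161 FPKM, and Myc, an oncogene that induces Arf, at 35.8, 67.0 and 63.9. Tbx2, a repressor of the locus, was at 0.0383, 0 and 0.0136 FPKM. Median differences of the 8 genes above the minimum were -0.17, -0.13 and -0.02 for leukaemia 1 minus 2, 1 minus 3 and 2 minus 3, against 0.02, -0.01 and -0.06 over all genes.

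Of 11 further targets of arrest and repair 10 were expressed, and of the 7 lists they held the widest differences. Trp53inp1, a stress-induced p53 cofactor, stood at 134, 68.0 and 61.8 FPKM and was higher in leukaemia 1 than in leukaemia 3, by 1.10. For leukaemia 1 minus 2 it lay at 0.969, just short of the threshold. Gtse1, a G2 and S phase protein that restrains p53, stood at 11.3, 38.4 and 52.5 FPKM and was lower in leukaemia 1 than in leukaemias 2 and 3, by -1.68 and -2.12. Its order over the libraries was that of the summed proliferation genes given above, whose part in it was not tested. Btg2, an antiproliferative p53 target, stood at 45.2, 12.8 and 24.2 FPKM and was higher in leukaemia 1 than in leukaemia 2, by 1.75, with FPKM above its own upper bound in at least 1 library. Plk2, a polo-like kinase, had the lowest mean, at 2.42, 0.154 and 0.0352 FPKM and was higher in leukaemia 1 than in leukaemias 2 and 3, by 1.57 and 1.72. Thus 2 of 11 were higher and 1 lower in leukaemia 1 than in leukaemia 2, and likewise 2 higher and 1 lower against leukaemia 3, while 0 of the 10 above the minimum differed between leukaemias 2 and 3. Over all genes above the minimum 8.37%, 10.2% and 4.94% differed in these pairs. The median differences of the list were 0.16, 0.27 and -0.15.

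Of 11 apoptosis targets 8 were expressed. Bax, a pore-forming effector, stood at 119, 104 and 122 FPKM, above its own upper bound in at least 1 library. Ei24, a protein of the endoplasmic reticulum, stood at 35.7, 33.9 and 36.9 FPKM, and Eda2r, a TNF receptor family member, at 0.00708, 0.00733 and 0.00769. None met the criterion between leukaemias 1 and 2 or between 2 and 3, but Aen lay at -0.999 for leukaemia 1 minus 2 and passed it, at -1.01, with median-of-ratios scaling. Aen, a p53-induced nuclease, at 7.79, 16.6 and 17.5 FPKM, and Pidd1, a death domain protein, at 4.22, 8.65 and 10.1, were lower in leukaemia 1 than in leukaemia 3, by -1.08 each. Both lay just short of the threshold with upper quartile scaling, at -0.98 for Aen and -0.99 for Pidd1. Median differences of the 8 genes above the minimum were -0.13, -0.04 and -0.15. Over all 7 lists 3 of 45 genes above the minimum, or 6.67%, differed between leukaemias 1 and 2, 6 of 45, or 13.3%, between 1 and 3, and 0 of 44 between 2 and 3, beside the backgrounds given above.

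**Figure D4:**
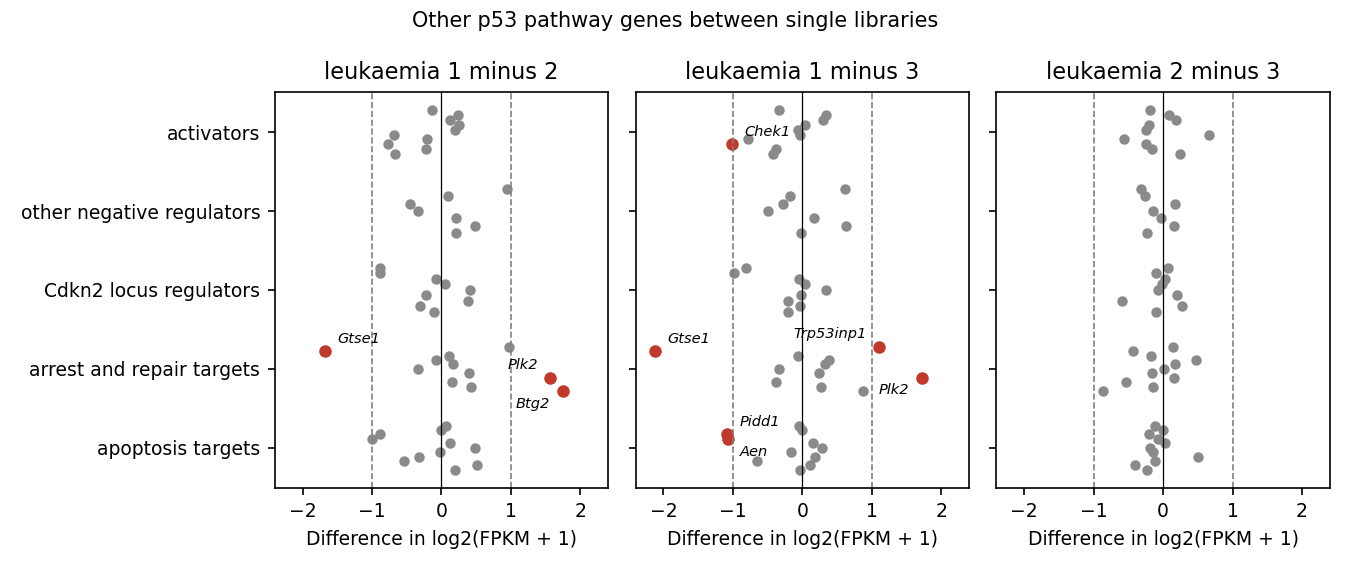
Difference in log2(FPKM + 1) of the genes of 5 lists (1 point per gene) for leukaemia 1 minus 2, 1 minus 3 and 2 minus 3, with dashed lines at -1 and 1. Named red points passed the criterion: 3 in the first panel, 6 in the second and 0 in the third.

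The genes whose profile over the 3 libraries was nearest to that of Trp53, by Euclidean distance of log2(FPKM + 1) centred on its mean, were Rassf7 at 6.23, 7.11 and 7.93 FPKM, Anapc1 at 17.7, 20.0 and 22.1, and Setdb1 at 12.1, 13.7 and 15.2. For Cdkn2a they were Herc2 at 5.14, 6.65 and 4.31 FPKM, Pcdhgc3 at 19.7, 25.1 and 17.1, and Stambpl1 at 83.3, 107 and 72.1. Their distances were at most 0.00240 for Trp53 and 0.0222 for Cdkn2a. Of 10412 genes that reached FPKM of 1 in any library, 786 lay within 0.1 of Trp53 and 53 within 0.1 of Cdkn2a.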

How the data were processed

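Thymuses of diseased mice were homogenised, red cells were lysed with ACK buffer and RNA was isolated, per the labels' protocols. The tools named in the submitters' processing notes were Cufflinks (without a version), Cuffdiff 2.1.1, TopHat2 2.0.9 and Trim Galore 0.2.8.1, with build mm10. Order, settings and strand use were not stated in the sources used here. The authors deposited FPKM per gene with a 95% interval, in 1 table for each of 3 leukaemias. These values are not counts, so a count test was not run.

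Of 25020 rows in each table, 26 with a symbol turned into a date were dropped. Loci of 1 symbol were summed, for FPKM and for both bounds (286 symbols), which gave 24437 genes. All rows of the 10 genes had status OK. Starts are the tables' own plus 1, which equalled the RefSeq start of GRCm38 for 8 of the 10. In 27.3% to 28.6% of rows at FPKM of 1 or more, FPKM exceeded its upper bound, so both values are not on 1 scale there. If the intervals span 2 Poisson SDs each way, they imply 24865466 to 27996991 fragments per library, but only 12.1% to 13.4% of low implied counts lay within 0.05 of a whole number. The intervals reflect fragment counting and assignment, not differences between animals.

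Differences were taken in log2(FPKM + 1), which understates those of low genes. The text names all 10 genes and, of each pathway list, the 2 highest, the lowest and those that differed in any pair. E2f1 and Bcl6, which came near the threshold, are named as well. The members and lists were chosen with earlier results of these data known. Alternatives covered pseudocounts, minimums, thresholds, 2 rescalings, the intervals, status and each library left out. Calls were checked on simulated data with counting error only, a check that does not cover spread between libraries. In the GENCODE annotation a pseudogene of Trp53 and one of Mdm4 could share reads with them, and gene models overlap Mdm4 and Cdkn1a on the opposite strand and Sesn1 on the same strand. Python 3.11.15, numpy 2.4.6, pandas 2.3.3 and scipy 1.17.1 were used.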

Additional observations from a re-analysis of the deposited data

How the results depend on the processing

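The count of members that differed was 1, 0 and 0 for leukaemia 1 minus 2, 1 minus 3 and 2 minus 3. With a pseudocount of 0.1 or of 0.01 it was 3, 1 and 0, and with the threshold lowered to 1.5 times in FPKM + 1 it was 4, 1 and 1. It stayed at 1, 0 and 0 with a minimum of 5, with non-overlapping intervals, with upper quartile or median-of-ratios scaling and with interval midpoints. The higher minimum and the interval rule can only lower a count, so the values of 0 were fixed under them. Without the FPKM minimum no count could change, because a difference of 1 needs FPKM of at least 1 in the higher library. Over all genes above the minimum the count for leukaemia 1 minus 2 was 862 of 10295. It was 1328 with a pseudocount of 0.1, 1384 with 0.01 and 2209 with the lower threshold. For 1 minus 3 the count was 1045 of 10265. It was 1541 with a pseudocount of 0.1, 1592 with 0.01 and 2741 with the lower threshold. For 2 minus 3 the count was 496 of 10047. It was 729 with a pseudocount of 0.1, 766 with 0.01 and 1159 with the lower threshold. With a minimum of 5 the count for 2 minus 3 was 306. The gap between Cdkn2a and Cdkn2b, 2.81, was 2.82 at interval midpoints and reached 3.99 and 4.23 with pseudocounts of 0.1 and 0.01. It ranged over 2.54 to 3.09 with 1 library left out. Because Cdkn2a was the higher in every library, pseudocounts, rescaling and leaving a library out could not turn the sign of the gap. The count of members expressed in all libraries was 7, or 7 to 8 with 1 library left out. At interval midpoints the mean log2 levels of 9 members moved by less than 1 SD. Ccng1 was the exception (4.66, against 4.72). With median-of-ratios scaling all 10 moved by less than 1 SD. Leaving out 1 of 3 libraries cannot move a mean by 1 SD, so those 30 values could not fail and are no check. Of the 10 differences of single genes past the threshold, alternatives added after seeing the data ended 3, those of Chek1, Aen and Pidd1 for leukaemia 1 minus 3, of which Chek1 was at -0.92 under upper quartile scaling. With a pseudocount of 0.1 Aen for leukaemia 1 minus 2 and E2f1 for leukaemia 1 minus 3 also passed, at -1.08 and -1.06, against -0.999 and -0.99. No paired analysis was possible because the labels give 1 group. Of the precision, intervals of Cdkn2b extended up to 40.4% and those of Phlda3 up to 34.8% to either side of the midpoint, against at most 2.41% for Trp53.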
